A study of Mus musculus with 12 samples.

Results

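The 39 genes described here are mouse genes of DNA replication and S phase, fixed by a list of symbols. The list covers origin licensing, the replication fork and nucleotide supply, and was chosen with earlier results of these data known. All 39 symbols matched 1 Ensembl gene each among the 55414 genes of the count table, and all 39 passed the filter on low counts that left 14919 genes for testing. They were measured by RNA sequencing in primary hepatocytes, cells isolated from mouse liver. The groups were Hnf4a knockout (KO) hepatocytes with MJ041, KO hepatocytes with vehicle, wild-type (WT) hepatocytes with MJ041 and WT hepatocytes with vehicle, with 3 libraries each and 12 in all. The vehicle was DMSO, MJ041 is a compound given only by its code name, and HNF4A is a nuclear receptor that drives the genes of the differentiated hepatocyte. The labels used here give neither the dose, the time of treatment, the strain, age or sex of the mice, nor how the knockout was made. They do not say that the replicates came from separate animals or cultures, so p-values measure only the spread between these samples, which may be technical.

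DNA replication is prepared when the origin recognition complex, CDC6 and CDT1 load the MCM helicase onto origins, a step called licensing. CDC45 and the GINS complex then turn the loaded MCM ring into an active helicase, the polymerases and primase copy both strands, and PCNA, a ring loaded by the RFC complex, keeps polymerases on the template. Most hepatocytes of an adult liver are quiescent and hold these genes at a low level, and many of the genes are activated by E2F transcription factors when cells approach S phase.

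The libraries held between 16740761 and 17902832 counts, of which the 39 genes took between 0.103% and 0.229%. Levels are given as CPM, counts scaled to a common library total after TMM scaling. Hnf4a itself had 61.1, 67.8 and 66.4 CPM in the KO libraries with vehicle, against 121, 137 and 112 CPM in the WT libraries with vehicle, a log2 fold change of -0.92 ± 0.10 (SE, edgeR adjusted p = 8.9e-06). With MJ041 it had 59.9, 75.99 and 66.7 CPM in KO, against 166, 178 and 142 CPM in WT. The KO libraries lay below every WT library, but Hnf4a RNA was present in all of them, and because the deleted part of the gene is not given, the level checks the labels only in part.

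Hepatocyte markers were present in all groups. Albumin (Alb) averaged 18885 ± 1541 CPM in KO and 44806 ± 2070.2 CPM in WT with vehicle (SD, n = 3 each). Of the 9 hepatocyte markers that could be matched, 6 fell and 1, Apoa1, rose in KO against WT with vehicle. In this comparison 27.5% of all genes tested rose and 26.9% fell, the shares to set beside all these marker counts. Among markers of other liver cells, 5 of 8 tested cholangiocyte markers rose and 1 fell, 2 of 12 Kupffer and macrophage markers rose and 1 fell, 1 of 12 endothelial markers rose and 1 fell, and 3 of 9 tested stellate and mesenchymal markers rose and 3 fell.

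The KO hepatocytes with vehicle held more RNA of most replication genes than the WT hepatocytes with vehicle. Of the 39 genes, 32 rose and 1 fell past an adjusted p of 0.05 in edgeR's quasi-likelihood test, so that 82.1% rose, where 54.5% of all genes tested passed, 27.5% upward and 26.9% downward. The median log2 fold change of the 39 genes was 0.95, against -0.00 for all genes tested, and 19 of the 39 were at least 2-fold higher. The KO and WT libraries did not overlap for 37 genes, 36 of them higher and 1 lower in KO, against 31.6% higher and 31.5% lower among all genes tested. Summed over the 39 genes, the KO libraries with vehicle held 1747 ± 218 CPM and the WT libraries with vehicle 1067 ± 29.0 CPM (SD, n = 3 each). In bulk RNA, a larger share of cells that express a gene and more RNA per cell cannot be told apart. The heat map of the 12 libraries shows these levels gene by gene.

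**Figure D1:**
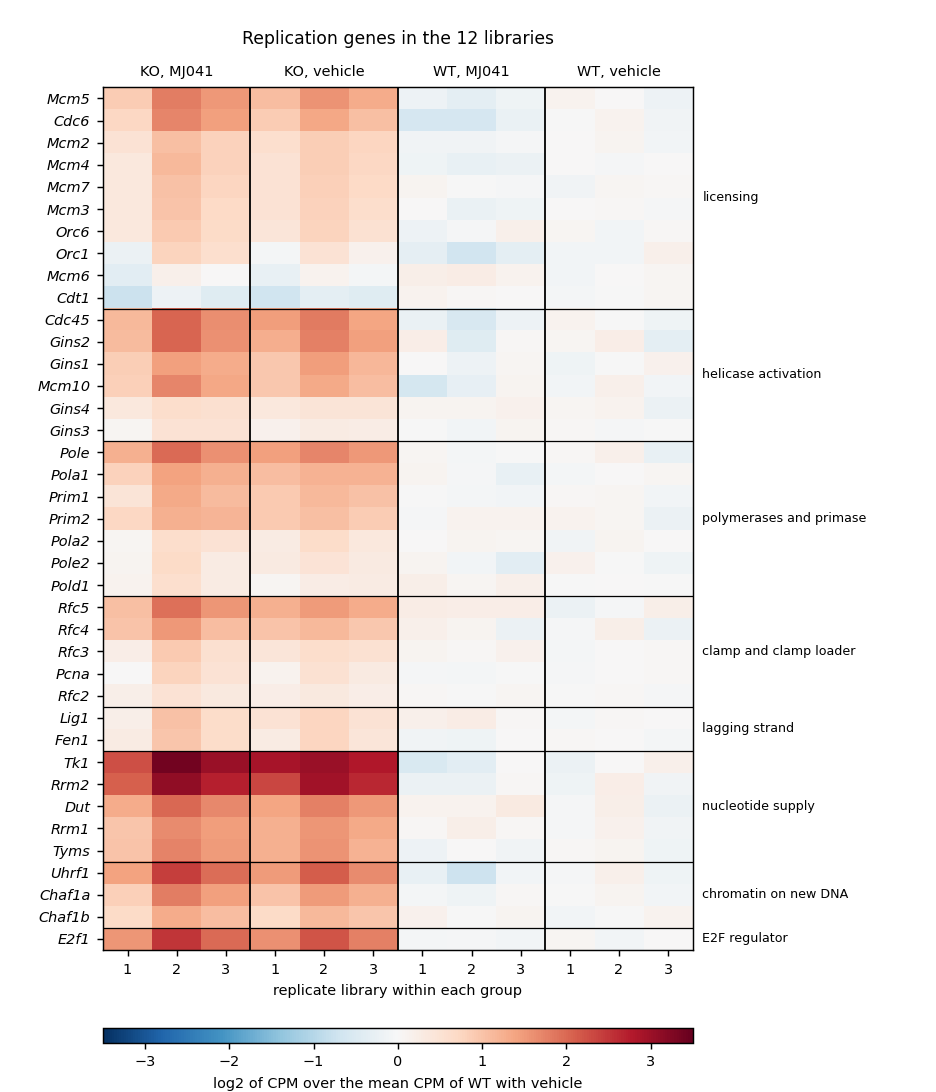
Level of each of the 39 replication genes (rows, grouped by role) in each of the 12 libraries (columns, by group and replicate), as the log2 of CPM over the mean CPM of WT with vehicle. The 6 KO columns are mostly red and the 6 WT columns mostly near white, Cdt1 and Mcm6 stand apart from the other rows, and replicate 2 is the darkest column of each KO group.

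The genes that supply nucleotides had the highest median of the roles with more than 1 gene. All 5 rose in KO against WT with vehicle, each at least 2-fold, with a median log2 fold change of 1.56. Tk1, the thymidine kinase that salvages thymidine in cycling cells, had 22.2, 24.6 and 21.2 CPM in KO and 2.62, 3.04 and 3.42 CPM in WT, a fold of 7.46 and a log2 fold change of 2.90 ± 0.25 (SE, adjusted p = 1.1e-06). Rrm2, the regulated small subunit of ribonucleotide reductase, had 76.7, 115 and 94.4 CPM in KO and 13.6, 17.7 and 14.03 CPM in WT, a log2 fold change of 2.66 ± 0.23 (adjusted p = 1.1e-06). For both genes the lowest KO library was more than 4 times the highest WT library.

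Rrm1, the large subunit of the same enzyme, had 85.00, 106 and 90.7 CPM in KO and 35.3, 40.00 and 32.9 CPM in WT, a log2 fold change of 1.38 ± 0.15 (adjusted p = 5.4e-06). The difference was smaller for the large subunit than the 2.66 of Rrm2, and the groups again did not overlap. Dut, which clears dUTP and yields dUMP, averaged 34.3 ± 4.88 CPM in KO and 11.6 ± 1.73 CPM in WT. Tyms, the thymidylate synthase that makes dTMP from dUMP, averaged 31.6 ± 4.35 CPM in KO and 12.4 ± 1.17 CPM in WT (SD, n = 3 each). Their log2 fold changes were 1.56 and 1.35. The mouse annotation names 1 pseudogene of Tyms, and the sources used here do not say how reads that fit both were counted.

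Licensing held both genes that rose and the gene that fell. Of its 10 genes, 7 rose, 1 fell and 2 did not pass the test with vehicle, and the median log2 fold change was 0.67. Mcm5, a subunit of the MCM helicase ring, had 70.7, 98.9 and 81.5 CPM in KO and 36.6, 33.97 and 29.7 CPM in WT, a log2 fold change of 1.32 ± 0.19 (adjusted p = 6.0e-05). Mcm2 had 78.6, 95.2 and 87.3 CPM in KO and 52.8, 55.6 and 48.5 CPM in WT, with a log2 fold change of 0.73 ± 0.11 (adjusted p = 1.2e-04). Mcm3 had 87.3, 106 and 93.3 CPM in KO and 61.2, 62.6 and 58.9 CPM in WT, with a log2 fold change of 0.65 ± 0.13 (adjusted p = 7.8e-04). Every KO library was above every WT library for these subunits, as it was for Mcm4 and Mcm7, which had log2 fold changes of 0.71 and 0.69. Cdc6, the ATPase that recruits the helicase to origins, rose by 1.10 and Orc6, a subunit of the origin recognition complex, by 0.59 on the log2 scale.

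Mcm6, the remaining subunit of the same ring, did not pass the test. It had 185, 239 and 209 CPM in KO and 208, 222 and 233 CPM in WT with vehicle, a log2 fold change of -0.06 ± 0.12 (adjusted p = 0.68). The KO values spread on both sides of the WT values. Cdt1, which brings the helicase to origins, was the gene that fell: it had 31.2, 39.5 and 37.4 CPM in KO and 48.2, 50.3 and 53.1 CPM in WT, a log2 fold change of -0.49 ± 0.12 (adjusted p = 0.0037). All 3 KO libraries were below all 3 WT libraries. Orc1, the largest subunit of the origin recognition complex, had 6.63, 9.94 and 7.695 CPM in KO and 6.54, 6.51 and 7.896 CPM in WT with overlapping groups, and its log2 fold change was 0.21 ± 0.23 (adjusted p = 0.47). Without the second KO library with vehicle the log2 fold change of Orc1 was -0.0092. Exons of Orc1 share 10.8% of their length with the noncoding gene Gm12743 on the opposite strand.

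The level of Mcm6 was already high in WT. Dividing CPM by the exon length of each gene in kilobases, from GENCODE M21, lets the subunits be set side by side. On this per-length scale Mcm6 stood at 45.3 ± 5.81 in KO and 47.3 ± 2.65 in WT with vehicle (SD, n = 3 each), Mcm3 at 25.5 ± 2.62 in KO and 16.2 ± 0.498 in WT, and Mcm5 at 20.95 ± 3.57 in KO and 8.37 ± 0.8802 in WT. The level of Mcm6 over the median level of the other 5 ring subunits was 2.24, 2.21 and 2.197 in the KO libraries with vehicle, against 4.099, 3.86 and 4.12 in the WT libraries with vehicle. With MJ041 the same ratio was 2.36, 1.94 and 2.12 in KO, against 4.76, 5.42 and 4.71 in WT. The ratio was lower in every KO library than in every WT library. It was chosen after the values of Mcm6 were seen and is given without a test. A ratio of RNA levels does not by itself show which subunit changed. Taken singly with vehicle, Mcm6 had a log2 fold change of -0.06 and did not pass the test. The other 5 subunits rose, with log2 fold changes from 0.65 for Mcm3 to 1.32 for Mcm5.

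**Figure D2:**
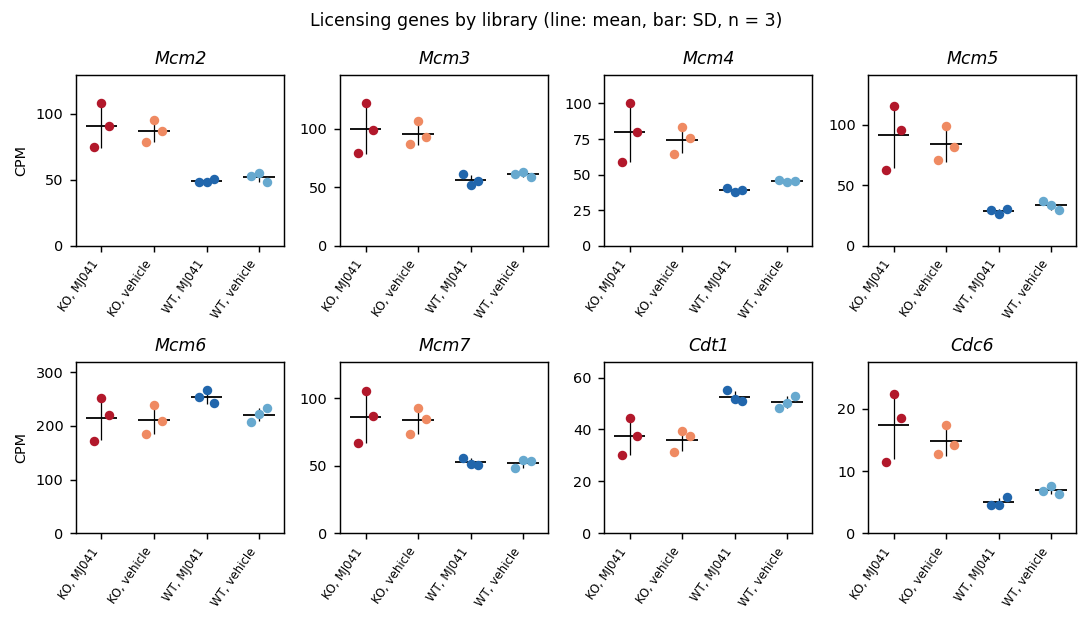
CPM of the 6 MCM ring subunits, Cdt1 and Cdc6 in each library (points), by group, with the mean (line) and SD (bar) of n = 3; each vertical axis starts at 0. The KO points lie above the WT points for Mcm2, Mcm3, Mcm4, Mcm5, Mcm7 and Cdc6, below them for Cdt1, and overlap them for Mcm6.

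The genes that activate the loaded helicase rose in 5 of 6 cases with vehicle, with a median log2 fold change of 1.17. Cdc45, which joins the MCM ring to form the moving helicase, had 10.6, 13.4 and 9.93 CPM in KO and 4.21, 3.82 and 3.48 CPM in WT, a log2 fold change of 1.56 ± 0.22 (adjusted p = 5.3e-05). The GINS subunit Gins1 had 10.2, 14.5 and 11.8 CPM in KO and 4.72, 5.19 and 5.85 CPM in WT, a log2 fold change of 1.21 ± 0.18 (adjusted p = 7.6e-05). Its partner Gins2 had 17.3, 24.5 and 19.5 CPM in KO and 7.505, 8.42 and 5.63 CPM in WT, a log2 fold change of 1.51 ± 0.24 (adjusted p = 1.5e-04). The KO libraries were above the WT libraries for all of these, but 67.3% of the exon length of Gins2 is shared with Gse1 on the opposite strand. The library kit marks strand, the strand setting of the counting is not stated, and reads of such pairs may therefore be mixed.

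The 4 GINS genes, whose proteins form 1 complex in equal parts, did not differ by the same amount. Gins4 had a log2 fold change of 0.43 (adjusted p = 0.0015). Gins3 had 8.11, 8.78 and 8.64 CPM in KO and 7.39, 7.104 and 7.23 CPM in WT, and its log2 fold change of 0.23 ± 0.13 was short of the threshold (adjusted p = 0.15), although the KO libraries lay above the WT libraries. Mcm10, a scaffold that helps start the fork, rose by 1.12 on the log2 scale. Whether the log2 fold changes of these genes differ from each other was not tested.

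Of the 7 polymerase and primase genes, 5 rose with vehicle, with a median log2 fold change of 0.95. Pole, the catalytic subunit of the leading-strand polymerase epsilon, had 34.2, 41.2 and 35.8 CPM in KO and 12.9, 14.3 and 10.4 CPM in WT, a log2 fold change of 1.56 ± 0.17 (adjusted p = 5.2e-06). Pola1, the catalytic subunit of polymerase alpha, had 28.8, 31.6 and 31.4 CPM in KO and 12.96, 13.6 and 14.1 CPM in WT, a log2 fold change of 1.17 ± 0.13 (adjusted p = 9.3e-06). Prim2, the large primase subunit, had 19.7, 21.7 and 19.5 CPM in KO and 11.4, 11.04 and 9.06 CPM in WT, a log2 fold change of 0.95 ± 0.13 (adjusted p = 6.1e-05). Each of these was at or near 2-fold or more, with no overlap between genotypes. Prim1, the catalytic primase subunit, rose by 1.02 and Pola2, the accessory subunit of polymerase alpha, by 0.44 on the log2 scale.

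Pole2 and Pold1 did not pass the test with vehicle. Pole2, the second subunit of polymerase epsilon, had 6.398, 7.27 and 6.47 CPM in KO and 5.74, 5.13 and 4.69 CPM in WT, a log2 fold change of 0.37 ± 0.17 (adjusted p = 0.086). Pold1, the catalytic subunit of polymerase delta, had 46.2, 53.4 and 54.1 CPM in KO and 44.1, 44.5 and 43.95 CPM in WT, a log2 fold change of 0.21 ± 0.10 (adjusted p = 0.093). For both, the KO libraries were above the WT libraries by small margins. Pold1 passed with only the groups compared in the fit (adjusted p = 0.028), without the filter on low counts (0.033) and without the first KO library with MJ041 (0.048), and Pole2 passed with a term for markers of other cells (0.048). The catalytic subunits of the leading-strand and lagging-strand polymerases thus had log2 fold changes of 1.56 and 0.21, a difference that was not tested.

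The clamp and its loader rose in 4 of 5 cases with vehicle, with a median log2 fold change of 0.53. Rfc5, a subunit of the clamp loader, had 20.3, 24.1 and 21.1 CPM in KO and 7.45, 8.24 and 9.94 CPM in WT, a log2 fold change of 1.35 ± 0.18 (adjusted p = 4.1e-05). Another loader subunit, Rfc4, had 12.8, 14.01 and 12.2 CPM in KO and 6.14, 7.402 and 5.58 CPM in WT, a log2 fold change of 1.03 ± 0.16 (adjusted p = 1.5e-04). The loader subunit Rfc3 had 23.6, 26.8 and 25.4 CPM in KO and 16.8, 17.7 and 18.2 CPM in WT, a log2 fold change of 0.53 ± 0.13 (adjusted p = 0.0045). Every KO library exceeded every WT library for these and for Rfc2, which rose by 0.27 on the log2 scale. Opposite-strand neighbours share 15.1% of the exon length of Rfc2, 12.7% of Rfc4 and 10.7% of Rfc5.

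Pcna, the clamp itself, had 80.03, 107 and 91.4 CPM in KO and 71.4, 74.8 and 75.6 CPM in WT with vehicle. Its groups did not overlap, and its log2 fold change was 0.33 ± 0.15, which did not pass the test (adjusted p = 0.078). It passed with only the groups compared in the fit (adjusted p = 0.017), without the filter on low counts (7.9e-04) and without the first KO library with MJ041 (0.013). The annotation names 2 pseudogenes of Pcna that may share its reads. On the lagging strand, where Okazaki fragments are processed and joined, both genes rose. Lig1, the ligase that seals the fragments, had 63.1, 75.8 and 63.1 CPM in KO and 42.9, 46.3 and 44.6 CPM in WT, a log2 fold change of 0.59 ± 0.15 (adjusted p = 0.0052). Fen1, the flap endonuclease, had 29.8, 41.04 and 32.8 CPM in KO and 24.96, 24.9 and 23.5 CPM in WT, a log2 fold change of 0.50 ± 0.15 (adjusted p = 0.012). The KO libraries of both genes were above the WT libraries, and 78.8% of the exon length of Fen1 lies opposite the antisense gene Gm10143. The calls of Fen1, Pola2 and Rfc2 were lost without the second KO library with vehicle, where their log2 fold changes were 0.31, 0.28 and 0.19, that of Pola2 also without the first WT library with vehicle (0.36) and that of Fen1 without the third (0.45).

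The genes that restore chromatin behind the fork all rose with vehicle, with a median log2 fold change of 1.26. Uhrf1, which brings the maintenance methyltransferase to newly copied DNA, had 43.8, 68.6 and 49.7 CPM in KO and 15.2, 17.9 and 14.1 CPM in WT, a log2 fold change of 1.78 ± 0.25 (adjusted p = 5.0e-05). The histone chaperone subunit Chaf1a had 33.02, 46.4 and 39.3 CPM in KO and 16.5, 17.6 and 15.5 CPM in WT, a log2 fold change of 1.26 ± 0.19 (adjusted p = 1.3e-04). Chaf1b, of the same complex, had 21.1, 29.3 and 25.99 CPM in KO and 12.3, 13.1 and 14.3 CPM in WT, a log2 fold change of 0.94 ± 0.15 (adjusted p = 1.9e-04). No KO library overlapped the WT range, and 52.5% of the exon length of Chaf1a is shared with Ubxn6 on the opposite strand. E2f1, a transcription factor that activates many of these genes, had 18.5, 28.02 and 20.7 CPM in KO and 6.31, 5.73 and 6.18 CPM in WT, a log2 fold change of 1.88 ± 0.22 (adjusted p = 1.2e-05). Its lowest KO library was above its highest WT library.

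**Figure D3:**
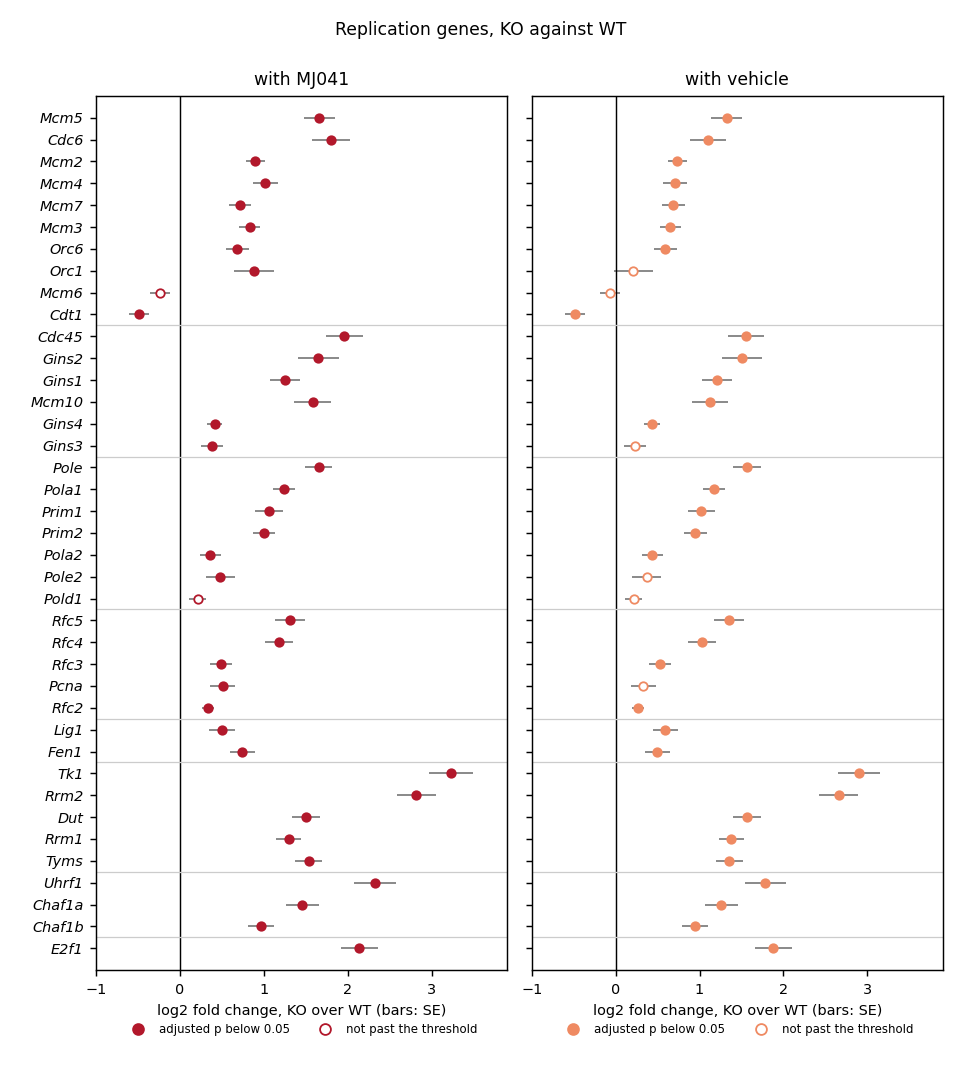
Log2 fold change of each of the 39 replication genes (rows, grouped by role) in KO over WT, with MJ041 on the left and with vehicle on the right; bars are SE from the edgeR fit and filled points passed an adjusted p of 0.05. Most points lie right of 0 in both panels, Tk1 and Rrm2 lie farthest right at 2.66 or more, and Cdt1 lies left of 0 in both.

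The promoters of these genes were searched because the E2f1 level differed along with them. RefSeq promoter windows in build GRCm38.p6, from 250 bases before to 50 bases after an annotated start site, were available for 32 of the 39 genes in 37 windows. The E2F-type motif was taken as 4 forms on either strand, of which the first was TTCCCGC, the second was TTCGCGC, the third was TTGCCGC and the fourth was TTGGCGC. Overlapping matches were merged into 1 stretch. It was found in 21 of the 32 genes with a window (65.6%), against 2002 of 10824 tested genes with a window (18.5%) and 10.9% of the 27025 genes in the whole table. Among the replication genes with a window, it was found in 15 of the 25 that rose with vehicle (60.0%) and in 6 of the 7 that did not (85.7%). A match is a description of letters and shows no binding, and base composition was not matched between these sets. CCAAT on either strand, whose letters can overlap those of some E2F-type matches, was found in 18 of the 32 genes (56.25%), against 42.7% of the tested genes.

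The windows of 5 genes, chosen after their values were seen, are shown because these genes span the range of differences between genotypes. Tk1 and Rrm2 had the highest log2 fold changes, Mcm5 the highest among the ring subunits, Mcm6 did not pass the test and Cdt1 fell. The windows lie at chr11:117825965-117826264 on the minus strand for Tk1, chr12:24708004-24708303 on the plus strand for Rrm2, chr8:75109259-75109558 on the plus strand for Mcm5, chr1:128359656-128359955 on the minus strand for Mcm6 and chr8:122567765-122568064 on the plus strand for Cdt1. They are printed from 5′ to 3′ along the gene, with E2F-type matches in capitals.
Tk1: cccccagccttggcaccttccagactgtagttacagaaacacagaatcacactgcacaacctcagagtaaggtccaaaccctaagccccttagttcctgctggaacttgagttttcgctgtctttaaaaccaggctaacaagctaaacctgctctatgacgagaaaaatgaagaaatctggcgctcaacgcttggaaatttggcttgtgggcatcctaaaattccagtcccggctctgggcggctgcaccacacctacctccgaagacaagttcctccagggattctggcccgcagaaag
Rrm2: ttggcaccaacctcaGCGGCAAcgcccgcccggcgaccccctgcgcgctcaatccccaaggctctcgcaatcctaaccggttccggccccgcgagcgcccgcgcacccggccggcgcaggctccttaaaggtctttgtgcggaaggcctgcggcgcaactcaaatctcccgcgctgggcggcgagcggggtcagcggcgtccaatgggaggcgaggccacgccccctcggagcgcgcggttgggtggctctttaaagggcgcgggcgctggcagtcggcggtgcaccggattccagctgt
Mcm5: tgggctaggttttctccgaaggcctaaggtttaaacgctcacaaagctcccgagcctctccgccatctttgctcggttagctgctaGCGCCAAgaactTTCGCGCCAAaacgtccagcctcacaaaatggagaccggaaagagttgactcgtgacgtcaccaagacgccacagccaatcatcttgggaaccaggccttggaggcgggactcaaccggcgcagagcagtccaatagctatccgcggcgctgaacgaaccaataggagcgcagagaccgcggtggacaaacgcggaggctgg
Mcm6: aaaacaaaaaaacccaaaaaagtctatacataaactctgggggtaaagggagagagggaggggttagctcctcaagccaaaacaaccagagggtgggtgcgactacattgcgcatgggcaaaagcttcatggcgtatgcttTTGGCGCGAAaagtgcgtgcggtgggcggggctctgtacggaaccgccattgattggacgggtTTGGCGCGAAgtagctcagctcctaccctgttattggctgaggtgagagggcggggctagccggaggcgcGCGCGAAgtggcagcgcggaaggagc
Cdt1: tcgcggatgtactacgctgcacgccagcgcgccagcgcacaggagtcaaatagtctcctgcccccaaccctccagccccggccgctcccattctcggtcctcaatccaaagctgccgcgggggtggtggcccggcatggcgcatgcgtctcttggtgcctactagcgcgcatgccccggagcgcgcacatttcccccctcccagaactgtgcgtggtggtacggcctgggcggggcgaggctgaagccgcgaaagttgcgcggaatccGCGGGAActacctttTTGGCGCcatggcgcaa
The Tk1 window held no match and the Rrm2 window 1, far upstream at -235 to -229 bases from the start site. The Mcm5 window held 2 stretches, at -164 to -158 and -152 to -143, and the Mcm6 window 3, at -109 to -100, -46 to -37 and 25 to 31. The Cdt1 window held 2, both after the start site, at 19 to 25 and 34 to 40. The gene that fell and the ring subunit that did not pass the test held 2 and 3 stretches. The gene with the highest fold held none in this window. Whether such stretches go with the difference between genotypes was not tested.

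**Figure D4:**
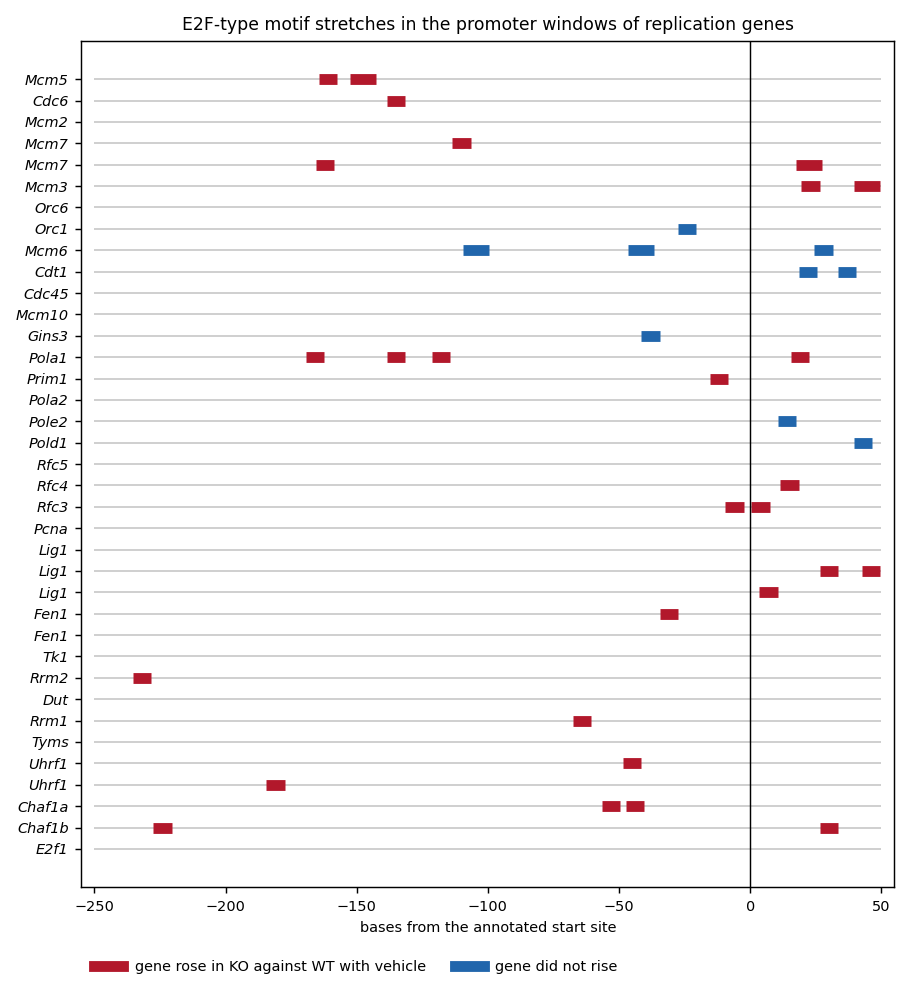
E2F-type motif stretches (coloured blocks) in the 37 promoter windows of 32 replication genes (rows; a gene with several start sites has several rows), by distance in bases from the annotated start site. Red marks genes that rose in KO against WT with vehicle and blue those that did not; 6 of the 7 genes that did not rise carry a block, as do 15 of the 25 that rose.

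The KO libraries were ordered alike by nearly every replication gene. Replicate 2 was the highest KO library for 39 of 39 genes with MJ041 and 38 of 39 with vehicle, and replicate 1 the lowest for 39 and 34. Replicate 2 was highest in both KO groups for 38 of the 39 genes, against 21.2% of all genes tested, and replicate 1 was lowest in both for 34, against 18.8%. Summed over the 39 genes, the KO libraries held 1399, 2274 and 1875 CPM with MJ041 and 1548, 1979.6 and 1714 CPM with vehicle. The WT libraries held 1099, 1079 and 1085 CPM with MJ041 and 1043, 1099 and 1059 CPM with vehicle. The lowest KO sum was above the highest WT sum.

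The median coefficient of variation of the 39 genes within a group was 23.4% in KO with MJ041 and 12.5% in KO with vehicle, against 6.58% in WT with MJ041 and 7.49% in WT with vehicle. Over all tested genes with a group mean of at least 5 CPM, it was 6.21% and 5.59% in the KO groups and 7.08% and 5.83% in the WT groups, in the same order. That floor was not applied to the 39 genes, some of which, such as Tk1, lay below it in WT. Mki67, a proliferation marker outside the list, had 49.2, 104 and 80.8 CPM in KO with MJ041 and 58.3, 83.9 and 61.9 CPM in KO with vehicle, and it put the libraries in the same order as the replication genes. Summed marker levels followed this order for some lists and not for others. The hepatocyte markers followed it, with 22989, 24436 and 23948 CPM in KO with MJ041 and 22281, 26206 and 22899 CPM in KO with vehicle. The endothelial markers followed it too, with 275, 322 and 298 CPM in KO with MJ041 and 241, 372 and 312 CPM in KO with vehicle, as did the stellate and mesenchymal markers. The Kupffer and macrophage markers followed it with MJ041 but not with vehicle, where they were 469.7, 516 and 462 CPM. The cholangiocyte markers followed it, with 490.3, 707 and 565 CPM in KO with MJ041 and 551, 713 and 625 CPM in KO with vehicle, but without Spp1, left out after its values were seen, they did not, with 364, 362 and 343 CPM and 367, 387 and 402 CPM. Their part in the result was not tested.

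Across genotypes, the marker lists set a range beside each difference. The summed cholangiocyte markers ran from 551 to 713 CPM in KO and from 404 to 619 CPM in WT with vehicle. Spp1 alone was 184, 326 and 223 CPM in KO and 474, 238 and 375 CPM in WT, and the other cholangiocyte markers summed to 367, 387 and 402 CPM in KO and 146, 166 and 182 CPM in WT, with no overlap. The summed Kupffer and macrophage markers ran from 462 to 516 CPM in KO and from 244 to 494 CPM in WT, the endothelial markers from 241 to 372 CPM in KO and from 252 to 392 CPM in WT, and the stellate and mesenchymal markers from 112 to 165 CPM in KO and from 111 to 145 CPM in WT. Lymphocyte and neutrophil markers summed to between 3.94 and 6.19 CPM in KO and between 6.21 and 10.4 CPM in WT, and erythroid markers, nearly all from Tfrc, to between 149.8 and 165 CPM in KO and between 178 and 198 CPM in WT. Of all these markers, Hbb-bt and Rhag were at 0 in all 12 libraries. With the mean level of the Kupffer, endothelial and stellate markers of each library as a term in the fit, 33 of the 39 genes rose and 1 fell with vehicle. The part of cholangiocyte-marker RNA in these results was not tested.

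With MJ041 in both genotypes, the KO hepatocytes again held more RNA of the replication genes. Of the 39 genes, 36 rose and 1 fell in KO against WT, so that 92.3% rose, where 54.4% of all genes tested passed, 26.8% upward and 27.6% downward. The median log2 fold change was 1.02, against 0.02 for all genes tested, and 21 genes were at least 2-fold higher. The groups did not overlap for 33 genes higher and 1 lower in KO, against 29.4% and 29.8% of all genes tested. The comparisons with MJ041 and with vehicle share no library, but both come from 1 fit with a shared estimate of the spread. Each KO library with MJ041 matched the KO library with vehicle of the same number best. The comparisons may therefore not be independent. Marker sums did not overlap between genotypes for some lists here. The Kupffer and macrophage markers ran from 475 to 504 CPM in KO and from 186 to 362 CPM in WT with MJ041, and the stellate and mesenchymal markers from 128 to 143 CPM in KO and from 71.9 to 115 CPM in WT. The cholangiocyte markers ran from 490.3 to 707 CPM in KO and from 317 to 434 CPM in WT (without Spp1, 364, 362 and 343 CPM in KO and 237, 324 and 222 CPM in WT), and the endothelial markers from 275 to 322 CPM in KO and from 169 to 289 CPM in WT. With the marker term in the fit 30 genes rose and 1 fell, and without the 2 WT libraries lowest in stellate markers 28 rose and 0 fell. That second fit leaves 1 WT library with MJ041, which is assumed to vary like the libraries of the other groups.

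Tk1 had 14.4, 31.6 and 24.7 CPM in KO and 2.101, 2.34 and 3.08 CPM in WT with MJ041, a log2 fold change of 3.23 ± 0.26 (adjusted p = 5.8e-07). Rrm2 had 63.95, 129 and 100.3 CPM in KO and 13.04, 13.1 and 15.4 CPM in WT, a log2 fold change of 2.82 ± 0.23 (adjusted p = 6.9e-07). Cdt1 had 30.1, 44.3 and 37.5 CPM in KO and 55.1, 51.8 and 51.04 CPM in WT, a log2 fold change of -0.50 ± 0.12 (adjusted p = 0.0033). As with vehicle, Tk1 and Rrm2 were far above every WT library in every KO library and Cdt1 was below. Against the 1 WT library with MJ041 that remains without the 2 lowest in stellate markers, the log2 fold change of Cdt1 was about as large, -0.45, and did not pass the test (adjusted p = 0.058).

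Among the genes that did not pass the test with vehicle, Orc1 had 6.01, 11.96 and 10.6 CPM in KO and 5.62, 4.37 and 5.500 CPM in WT with MJ041, a log2 fold change of 0.88 ± 0.24 (adjusted p = 0.0066). Pcna had 74.8, 127 and 104 CPM in KO and 71.7, 69.8 and 73.3 CPM in WT, a log2 fold change of 0.51 ± 0.15 (adjusted p = 0.011). Both passed the test here with groups that did not overlap, as did Pole2 with a log2 fold change of 0.48 ± 0.17 (adjusted p = 0.033). Gins3 passed it with overlapping groups and a log2 fold change of 0.38 ± 0.13 (adjusted p = 0.025). Each of these calls was lost when the marker term was added or a library was left out. With the marker term, edgeR's adjusted p was 0.084 for Orc1, 0.11 for Pcna and 0.17 for Gins3. For Pole2 it was 0.18 without the second KO library. Of 19 alternative fits, the call was lost in 8 for Gins3, 6 for Pole2, 3 for Pcna and 2 for Orc1. Among genes that also passed with vehicle, Pola2 lost its call with MJ041 in 8 of 19, Lig1 in 4 and Rfc3 in 2. Orc6, Rfc2 and Cdt1 lost theirs in 1 each. The groups overlapped for Pola2 and Lig1.

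Mcm6 and Pold1 did not pass the test with MJ041 either. Mcm6 had 172, 252 and 221 CPM in KO and 253, 266 and 242 CPM in WT, a log2 fold change of -0.24 ± 0.12 (adjusted p = 0.11). Pold1 had 48.2, 66.7 and 54.2 CPM in KO and 50.6, 46.00 and 49.7 CPM in WT, a log2 fold change of 0.21 ± 0.10 (adjusted p = 0.098). Both overlapped between genotypes. Without the second KO library with MJ041, Mcm6 fell with a log2 fold change of -0.39 (adjusted p = 0.015), and without the first, Pold1 rose with 0.31 (adjusted p = 0.014).

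MJ041 against vehicle gave no call among the replication genes in either genotype. In KO hepatocytes 0 of the 39 genes passed edgeR's test and 0 had an unadjusted p below 0.05, where 0% of all genes passed and 414 had such an unadjusted p. DESeq2 called 0 of the 39 as well. The log2 fold changes ran from -0.02 to 0.24, with a median of 0.09, against 0.01 for all genes tested. They were above 0 for 36 of the 39 genes and for 7820 of the 14919 genes tested. Because the 39 genes ordered the KO libraries nearly alike, the 36 are not separate observations. No gene had KO libraries with MJ041 that all lay on 1 side of the KO libraries with vehicle, where 5.13% of all genes lay higher and 4.38% lower. The median SE was 0.15 on the log2 scale, and the KO libraries with MJ041 were the most spread for these genes, so small differences were not detectable with these samples. The median moved to 0.26 without the first KO library with MJ041 and to -0.10 without the second.

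In WT hepatocytes 0 of the 39 genes passed the test and 0 had an unadjusted p below 0.05, where 2.21% of all genes passed, 1.19% upward and 1.02% downward, and 3219 had such an unadjusted p. DESeq2 called 0 of the 39. The log2 fold changes ran from -0.46 to 0.24 with a median of -0.03, against 0.03 for all genes tested, and the median SE was 0.16. Cdc6 had 4.57, 4.56 and 5.85 CPM with MJ041 and 6.82, 7.58 and 6.29 CPM with vehicle, a log2 fold change of -0.46 ± 0.23 (adjusted p = 0.27). It was 1 of 4 genes whose WT libraries with MJ041 all lay below those with vehicle, with Orc1, Mcm4 and Cdc45, while Mcm6, Pold1 and Rfc5 lay above. Among all genes tested, 9.22% lay below and 13.1% above. Their log2 fold changes were -0.43, -0.21 and -0.32 for the lower genes and 0.20, 0.14 and 0.24 for the higher ones, none past the test.

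Marker levels differed between the WT groups too. Summed stellate and mesenchymal markers were 71.9, 73.8 and 115 CPM with MJ041 and 133, 111 and 145 CPM with vehicle. Summed endothelial markers were 169, 176 and 289 CPM with MJ041 and 277, 252 and 392 CPM with vehicle. The first and second WT libraries with MJ041 were low in both lists. Without them 1 WT library with MJ041 remains, and as that fit called 0 of all genes tested, it says nothing of the 39.

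Whether the response to MJ041 differed between KO and WT was tested as an interaction, KO minus WT. Of the 39 genes 0 passed, where 0% of all genes passed, and 1 had an unadjusted p below 0.05, where 1980 of all genes tested did, and DESeq2 called 0 of the 39. That gene was Cdc6, named after its value was seen. It had 11.4, 22.4 and 18.5 CPM in KO with MJ041 and 12.7, 17.5 and 14.3 CPM in KO with vehicle, and the difference of its responses was 0.70 ± 0.31 on the log2 scale (adjusted p = 0.35). The median difference over the 39 genes was 0.11, against -0.02 for all genes tested. It moved to -0.03 without the second KO library with MJ041 and to 0.25 without the first.

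**Figure D5:**
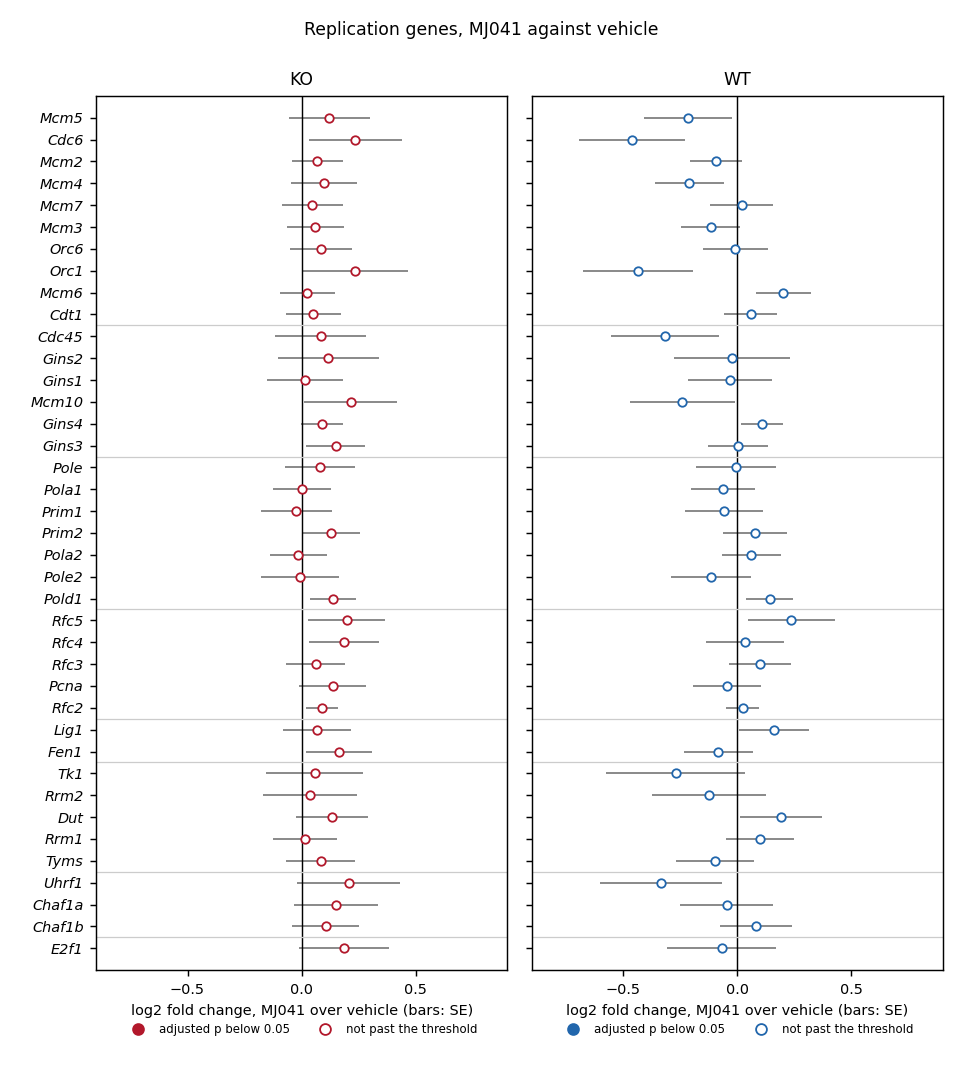
Log2 fold change of each of the 39 replication genes (rows, grouped by role) with MJ041 over vehicle, in KO on the left and in WT on the right; bars are SE from the edgeR fit and open points did not pass an adjusted p of 0.05. All points are open, and they run from -0.02 to 0.24 in KO and from -0.46 to 0.24 in WT.

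The rest of the replication pathway held genes that rose and genes that fell in each list. In KO against WT with vehicle, 27.5% of all genes tested rose and 26.9% fell, the shares to set beside each list below. Of 37 other origin and replisome genes, 24 rose and 5 fell in KO against WT with vehicle, with a median log2 fold change of 0.48. Rpa1, which coats single-stranded DNA, had 122, 154 and 137 CPM in KO and 62.4, 66.5 and 63.9 CPM in WT, a log2 fold change of 1.10 ± 0.11 (adjusted p = 3.1e-06). Clspn, an adaptor of the replication checkpoint, rose by 2.32 and Wdhd1, which couples polymerase alpha to the helicase, by 1.29. Pold4, a small subunit of polymerase delta, had 15.02, 16.6 and 16.4 CPM in KO and 33.7, 30.6 and 32.6 CPM in WT, a log2 fold change of -1.01 ± 0.10 (adjusted p = 3.4e-06), and Orc5, of the origin recognition complex, and Rnaseh2b, of the RNA-removing nuclease, had -0.81 and -0.33. Components of 1 complex thus passed the test in opposite directions, as Orc6 and Orc5 did, where 54.5% of all genes tested passed.

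Of 30 other nucleotide supply genes, mostly of general purine and pyrimidine synthesis, 12 rose and 3 fell, with a median of 0.10. Dtymk, the kinase after thymidylate synthase and Tk1, rose by 0.78, Shmt1, of folate metabolism, by 0.64 and Impdh2, of guanine nucleotide synthesis, by 0.46. Atic, Adsl and Umps, enzymes of new purine and pyrimidine synthesis, fell, with log2 fold changes of -0.22, -0.22 and -0.18. Of 14 tested genes of chromatin assembly and maintenance, 10 rose and 1 fell, with a median of 0.77. Dnmt1, the maintenance methyltransferase that UHRF1 recruits, rose by 0.76, the chromatin remodeller Hells by 1.21 and the heterochromatin protein gene Cbx5 by 0.88, and Supt16, of the FACT histone chaperone, had -0.19.

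Of 15 tested genes of E2F factors and pocket proteins, 9 rose and 2 fell, with a median of 0.26. E2f8 had 16.7, 19.1 and 15.2 CPM in KO and 2.62, 3.04 and 3.04 CPM in WT, a log2 fold change of 2.55 ± 0.23 (adjusted p = 1.2e-06). E2f7, which like E2f8 encodes a repressor, had 2.53 and the activator gene E2f2 1.73, while E2f5 and Lin37, both linked to repression of cell cycle genes in quiescence, had -0.67 and -0.29. Factors known as activators and as repressors of the same promoters therefore both rose.

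Of 18 genes of S-phase entry, 13 rose and 2 fell, with a median of 0.83. Ccnd1, the cyclin that opens the cell cycle in hepatocytes, had 365, 368 and 355 CPM in KO and 45.03, 45.3 and 49.7 CPM in WT, a log2 fold change of 2.96 ± 0.09 (adjusted p = 4.9e-11). Mki67 had 58.3, 83.9 and 61.9 CPM in KO and 5.003, 6.45 and 5.58 CPM in WT, a log2 fold change of 3.58 ± 0.26 (adjusted p = 2.5e-07). Both were far above WT in every KO library. The gene of the cell cycle inhibitor p27, Cdkn1b, also rose, by 0.95. The inhibitor gene Cdkn1c had 0.514, 0.639 and 0.446 CPM in KO and 3.01, 2.63 and 2.93 CPM in WT, a log2 fold change of -2.41 ± 0.25 (adjusted p = 4.1e-06), and Myc, a transcription factor that promotes growth, had 201, 196 and 186 CPM in KO and 312, 320.3 and 295 CPM in WT, a log2 fold change of -0.67 ± 0.07 (adjusted p = 4.0e-06). The 2 genes that fell thus included a promoter and an inhibitor of the cycle.

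Of 18 genes of replication stress and checkpoints, 10 rose and 4 fell, with a median of 0.45. The Fanconi genes Fancd2 and Fanci, which act on stalled forks, rose by 2.44 and 1.96 and the mismatch repair gene Msh6 by 0.62, while Rad9a and Rad1, subunits of the checkpoint clamp, and Etaa1, an activator of the checkpoint kinase ATR, had -0.40, -0.50 and -0.45. Of all genes tested, 0% passed for MJ041 against vehicle in KO and 2.21% in WT. Against vehicle, MJ041 gave 0 calls in KO in all of these lists. In WT it gave 2, for Ccnd1, with 55.5, 67.6 and 56.8 CPM with MJ041 and 45.03, 45.3 and 49.7 CPM with vehicle (log2 fold change 0.36 ± 0.08, adjusted p = 0.045), and for Samhd1, which degrades deoxynucleotides, with 89.7, 77.8 and 99.5 CPM with MJ041 and 133, 106 and 144 CPM with vehicle (log2 fold change -0.52 ± 0.10, adjusted p = 0.035). The call of Ccnd1 was lost in 14 of 19 alternative fits and that of Samhd1 in 11 of 19. When only the WT libraries were fitted, the log2 fold changes were 0.34 for Ccnd1 and -0.54 for Samhd1, each with an adjusted p of 0.18, and 0 of all genes passed.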

How the data were processed

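The deposited values are unnormalized read counts for each Ensembl gene. The genome mm39 and the tools featureCounts, STAR 2.7.10b, Trimmomatic 0.34, DESeq2 and FastQC are listed in the submitters' processing notes without their roles; strand and multimapping settings are not given in the sources used here, and per the labels the library kit was stranded. All 12 columns were mapped to samples by name, and no pair of replicates agreed within sampling noise (chi-square per degree of freedom from 4.39 to 14.6).

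Genes were kept by filterByExpr (minimum count 10), scaled by TMM and fitted in edgeR 4.0.16 (limma 3.58.1, R 4.3.3) with 1 coefficient per group over all 12 libraries; p-values of the quasi-likelihood test were adjusted by Benjamini-Hochberg over 14919 genes, with a threshold of 0.05. The method was also run on simulated data in which genes varied independently and few differed between groups. The real data differ from that setting, so the run is not used as support. DESeq2 1.42.0 was an alternative, with others of scaling, filter, samples, left-out libraries, replicate block and marker term.

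The members, lists and tests were chosen with earlier results of these data known. Values in every library are given for up to 3 genes per role with the smallest adjusted p in KO against WT with vehicle and for members that did not rise there, and up to 3 genes in each direction were named from the other lists. Symbols were found for 52081 of 55414 identifiers; 4 listed symbols outside the 39 genes were unmatched. Exon lengths and overlaps come from GENCODE M21 on GRCm38, not the build of the counts.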

Additional observations from a re-analysis of the deposited data

How the results depend on the processing

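The numbers of replication genes that rose or fell stayed within 1.5 times the reported counts under DESeq2, RLE scaling, no filter on low counts, the replicate block, fits of only the groups compared, the marker term and the fit without the 2 WT libraries with MJ041 lowest in stellate markers, except for the 1 gene that fell with MJ041. That count was 2 without the filter and 2 with the replicate block, where Mcm6 joined Cdt1, and 0 without those 2 libraries, a fit with 1 WT library with MJ041. With vehicle, 32 to 34 genes rose under these alternatives, and with MJ041 28 to 36. Leaving out each of the 12 libraries in turn gave 29 to 34 genes up and 1 to 1 down with vehicle, 31 to 37 up and 1 to 2 down with MJ041, and 0 to 0 for MJ041 against vehicle in either genotype and for the interaction. The lowest counts came without the second KO library. Of the named genes outside the 39, Umps, Adsl, Lin37 and Supt16 lost their calls with vehicle without the filter or with 1 library left out. Orc1 in KO against WT with vehicle ranged from -0.0092, without the second KO library with vehicle, to 0.31.

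The labels do not say that replicate numbers pair the samples, and in no comparison did all 3 same-numbered pairs correlate above 0.1. The correlations for replicates 1 to 3 were 0.158, -0.0507 and 0.0923 for KO against WT with vehicle, 0.1, -0.0275 and 0.002 for KO against WT with MJ041, 0.349, 0.458 and 0.039 for MJ041 against vehicle in KO, and -0.0103, 0.203 and 0.499 in WT. In KO every library matched its own number best, a hint of pairing from the data and not from the design. With the replicate block 33 genes rose and 1 fell with vehicle, 36 rose and 2 fell with MJ041, and 0 passed for MJ041 against vehicle. Pcna passed with vehicle under the block (0.32, adjusted p = 0.039) and Mcm6 with MJ041 (-0.25, adjusted p = 0.028). The block changed no other call among the 39 genes. Over all genes, MJ041 in WT gave 649 calls with the block and 329 without.

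Counts over all genes were less stable for MJ041. In WT DESeq2 called 894, no filter 1667, the marker term 87, the fit of the WT groups alone 0 and the fit with 1 WT library with MJ041 0, and leaving out 1 library gave 0 to 1840. In KO DESeq2 called 1 and no filter 15. The interaction gave 218 with DESeq2, 886 without the filter and 0 to 756 with 1 library left out. With 150 bases before the start site, 14.2% of the tested genes with a window had an E2F-type motif, against 18.5% with 250 bases. Among the replication genes with a window the share was 62.5%, against 65.6%. The causes were not tested. Depth limits the low genes most: Tk1 had under 4 CPM in WT.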

Other observations

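Per exon length, the order of the replication genes differed between the genotypes. With vehicle, Mcm6 stood highest at 45.3 ± 5.81 CPM per kilobase in KO and 47.3 ± 2.65 in WT, followed by Pcna at 38.7 ± 5.64 in KO and 30.8 ± 0.939 in WT (SD, n = 3 each). Rrm2 came next in KO at 34.4 ± 6.95, where it lay within the spread of Pcna, against 5.46 ± 0.814 in WT, where Cdt1 at 16.1 ± 0.775, Mcm3 at 16.2 ± 0.498 and Gins4 at 14.3 ± 1.71 were among the genes above it. With a joined exon length of 5198 bases, Tk1 was the lowest of the 39 in WT at 0.582 ± 0.0778, against 4.36 ± 0.335 in KO. A shorter length would raise its level and could change that rank. Within ribonucleotide reductase, Rrm2 exceeded Rrm1 by its level per length in KO, 34.4 ± 6.95 against 8.52 ± 0.9702. The excess was smaller in WT, 5.46 ± 0.814 against 3.28 ± 0.327. This order rests on the joined exon lengths, 2771 bases for Rrm2 and 11012 for Rrm1. Before division by length, Rrm1 stood above Rrm2 in WT with vehicle, with means of 36.1 and 15.1 CPM. In KO with vehicle the means were 93.8 CPM for Rrm1 and 95.4 CPM for Rrm2. Exon lengths come from an annotation that joins all isoforms, so the level of a gene whose expressed isoforms are shorter is understated. The order of the genes per length therefore depends on these joined lengths.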
